A study of Homo sapiens with 10 samples.

Results

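The expression of 10 genes of the cellular response to low oxygen was followed in 10 RNA-sequencing libraries of SH-SY5Y cells, an established human neuroblastoma line used as a neuron-like model. The members were fixed by symbol, without glycolysis genes: the transcription factors HIF1A and EPAS1 and the targets VEGFA, ADM, BNIP3, CA9, EGLN3, NDRG1, ANKRD37 and DDIT4. Each symbol matched 1 of the 58174 rows of the deposited table. A total of 9 members, all but CA9, averaged at least 1 TPM (a gene's length-scaled share of all transcripts, set to a fixed total per library) over the 10 libraries and were tested with the other genes that did so, 17118 in all.

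In the first experiment, TDP-43 was depleted with a siRNA pool in 3 libraries (siTDP-43), and 3 libraries (siControl) received the control siRNA pool. Each pool was used at 50 nM, with a repeat dose at 24 h and harvest at 96 h. In the second, 2 libraries (N352S) came from cells made homozygous for mutant TDP-43 N352S by genome editing and 2 (wild type) from cells with wild-type TDP-43, and their labels name no siRNA. TDP-43, encoded by TARDBP, is a nuclear RNA-binding protein that is lost from the nucleus in amyotrophic lateral sclerosis. The study asked which transcripts follow from loss of TDP-43 and which from the mutant. The labels name no oxygen treatment and do not say whether the genotype libraries came from 1 clone or several. They call the libraries biological replicates without naming separate cultures, so the tests weigh differences against library-to-library spread, which may be technical.

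Cells sense oxygen through prolyl hydroxylases of the EGLN family, which mark the alpha subunits HIF1A and EPAS1 (HIF-2 alpha) for binding by VHL and for destruction by the proteasome. When oxygen is low the alpha subunits persist, pair with ARNT and bind a short response element near target genes. This control acts mainly on the proteins, which were not measured here. EPAS1 is known for its high level in the sympathoadrenal lineage, from which neuroblastoma arises.

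TARDBP lay at 62.26 to 67.67 TPM in siTDP-43 libraries and at 255.5 to 256.3 TPM in siControl libraries, and at 122.3 and 122.8 TPM in N352S libraries against 195.5 and 205.4 TPM in wild-type libraries. The 9 noradrenergic markers checked (among them HAND2 and DBH) summed to 4346 to 5758 TPM per library, 5 glial markers to 4.17 to 10.08 TPM and 7 markers of other cells to 3.61 to 12.96 TPM, although TH, the first enzyme of catecholamine synthesis, averaged 0.69 to 2.76 TPM per group. Genes encoded by the mitochondrial genome took 15.5 to 16.2% of TPM in siTDP-43 libraries and 11.998 to 14.297% in siControl libraries, and the noradrenergic sum was 5558 to 5758 TPM in siTDP-43 libraries and 4879 to 5073 TPM in siControl libraries. It was 4346 to 4633 TPM in N352S libraries and 4823 to 4899 TPM in wild-type libraries. The glial sum was 4.17 to 5.68 TPM in siTDP-43 and 5.42 to 7.68 TPM in siControl libraries, and 7.27 to 8.46 TPM in N352S and 9.19 to 10.08 TPM in wild-type libraries. The sum for other cells was 4.82 to 5.01 TPM in siTDP-43 and 3.61 to 4.68 TPM in siControl libraries, and 10.87 to 12.96 TPM in N352S and 7.81 to 11.64 TPM in wild-type libraries. The epithelial gene EPCAM was called higher in N352S cells (4.48 TPM, against 1.84 TPM in wild type; limma adjusted p = 0.00274), and the endothelial gene CDH5 was listed at 0 in every library. The part of these shifts in the results was not tested. In bulk samples, fewer cells of a type and less RNA per cell cannot be told apart. Sequencing depth cannot be read from TPM and is unknown.

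HIF1A, EPAS1 and VEGFA were abundant in every group, and CA9, whose product is a cell-surface carbonic anhydrase and a clinical marker of hypoxia, was listed at 0 to 0.23 TPM. In siTDP-43 libraries the order of levels was EPAS1 (227.0 TPM on average), HIF1A (182.0), VEGFA (119.6), BNIP3 (66.1), DDIT4 (43.2), ANKRD37 (16.4), EGLN3 (10.4), NDRG1 (8.92) and ADM (3.88), with CA9 last. The libraries of neighbours in this order did not overlap, except for EGLN3 and NDRG1. In siControl libraries HIF1A came first (203.4 TPM), before EPAS1 (135.7), VEGFA (123.9), BNIP3 (97.5), DDIT4 (54.9), ANKRD37 (15.0), NDRG1 (9.23), EGLN3 (7.58) and ADM (3.66), and no neighbours overlapped. The pairs of N352S libraries gave HIF1A (134.4 TPM), EPAS1 (103.3), VEGFA (99.0), DDIT4 (97.4), BNIP3 (60.1), ANKRD37 (10.3), NDRG1 (9.02), EGLN3 (7.02) and ADM (3.67), and EPAS1 overlapped VEGFA, and ANKRD37 overlapped NDRG1. In wild-type libraries DDIT4 (156.3 TPM) stood second after HIF1A (193.1), followed by EPAS1 (135.6), VEGFA (106.9), BNIP3 (58.9), ANKRD37 (9.85), NDRG1 (7.94), EGLN3 (3.85) and ADM (2.61), and no neighbours overlapped. The places of EPAS1 and DDIT4 thus differed most between the groups.

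**Figure D1:**
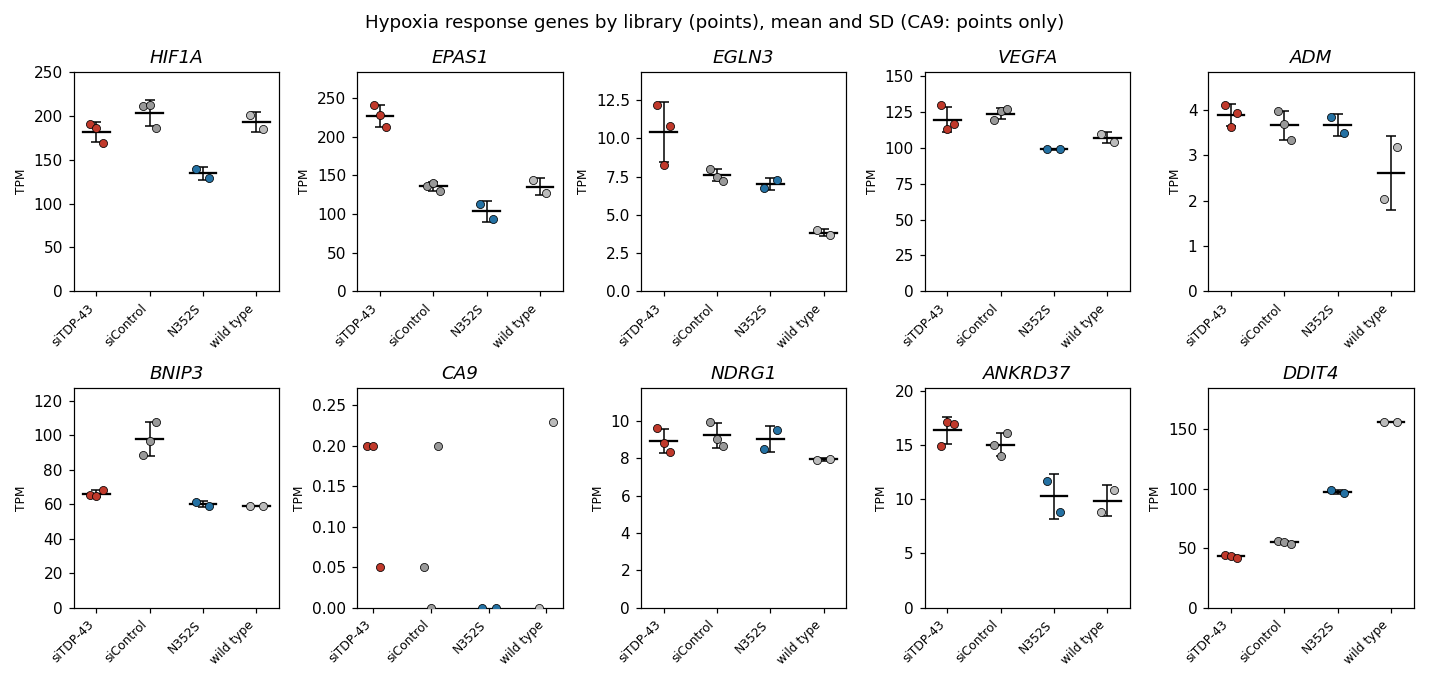
TPM of the 10 genes (panels) in each library (points) for siTDP-43, siControl, N352S and wild-type cells, with a horizontal line at each group mean and an error bar of 1 SD (neither for CA9), on axes that start at 0. EPAS1 is highest in the 3 siTDP-43 libraries, at 212.2 to 240.6 TPM, and DDIT4 in the 2 wild-type libraries, at 156.17 and 156.35 TPM.

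The hypoxia response element has the core ACGTG or GCGTG, and the promoter windows show how differently the members carry it. RefSeq windows on GRCh38.p14, from 250 bases before to 50 after an annotated start, were found for 8 members. At least 1 core on either strand was held by 7 of them in any window. Among 27305 genes, counted by 1 window each, the share was 48.4%. The member windows with a core were 62 to 80.7% G and C, and the background was not matched for this. BNIP3 had 6 matches, DDIT4 4 and ANKRD37 3, and 10.2% of the 27305 background windows held 3 or more. The letters CACGTG read as ACGTG on both strands and were counted for both, once in BNIP3 and once in ANKRD37. HIF1A (in the first of 2 windows), EPAS1, ADM and CA9 held 1 match each, and the EGLN3 window held none. The RefSeq starts can differ from the GENCODE spans of the genes given below. The EGLN3 window (chromosome 14, 33951025 to 33951324) lies far inside its GENCODE span, 33924231 to 34462774. That of EPAS1 also lies inside its GENCODE span. Cells may use other starts, and a match is a description of letters, not of binding. The windows of BNIP3 and DDIT4, which were lower in the knockdown, of ANKRD37, which was not called, of the factor gene EPAS1 and of the near-silent CA9 are shown 5′ to 3′ on the strand of the gene, with the cores in capitals.
BNIP3, chr10:131981874-131982173, minus strand: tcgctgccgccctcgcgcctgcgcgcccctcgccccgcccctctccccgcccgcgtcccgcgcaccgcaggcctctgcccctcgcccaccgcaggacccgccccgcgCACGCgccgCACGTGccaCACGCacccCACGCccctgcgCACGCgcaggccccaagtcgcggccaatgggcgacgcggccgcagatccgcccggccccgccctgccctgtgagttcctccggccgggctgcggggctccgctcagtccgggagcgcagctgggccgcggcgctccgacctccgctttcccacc
DDIT4, chr10:72273674-72273973, plus strand: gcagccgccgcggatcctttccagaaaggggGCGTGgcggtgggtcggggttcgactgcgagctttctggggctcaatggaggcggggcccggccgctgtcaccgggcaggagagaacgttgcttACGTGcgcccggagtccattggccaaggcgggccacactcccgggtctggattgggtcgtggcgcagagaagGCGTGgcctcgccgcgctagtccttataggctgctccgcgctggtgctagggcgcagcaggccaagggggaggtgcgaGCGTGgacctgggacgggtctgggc
ANKRD37, chr4:185396591-185396890, plus strand: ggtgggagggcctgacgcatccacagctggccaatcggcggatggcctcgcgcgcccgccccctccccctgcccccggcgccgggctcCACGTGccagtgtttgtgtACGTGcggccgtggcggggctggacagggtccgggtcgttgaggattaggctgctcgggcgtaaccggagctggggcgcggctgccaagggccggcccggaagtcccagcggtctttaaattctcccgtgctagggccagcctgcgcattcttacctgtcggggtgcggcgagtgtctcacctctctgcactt
EPAS1, chr2:46297157-46297456, plus strand: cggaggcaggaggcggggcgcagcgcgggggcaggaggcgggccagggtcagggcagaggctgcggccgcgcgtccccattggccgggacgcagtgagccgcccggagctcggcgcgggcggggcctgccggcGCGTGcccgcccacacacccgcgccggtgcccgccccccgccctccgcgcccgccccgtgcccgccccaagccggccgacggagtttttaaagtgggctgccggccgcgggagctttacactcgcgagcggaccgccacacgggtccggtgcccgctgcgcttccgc
CA9, chr9:35673678-35673977, plus strand: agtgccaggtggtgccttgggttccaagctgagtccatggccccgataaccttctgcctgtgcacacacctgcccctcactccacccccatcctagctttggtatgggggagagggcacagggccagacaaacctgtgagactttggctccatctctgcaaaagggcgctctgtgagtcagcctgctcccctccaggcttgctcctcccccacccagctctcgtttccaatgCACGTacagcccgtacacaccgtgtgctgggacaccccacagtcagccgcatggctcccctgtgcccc

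**Figure D2:**
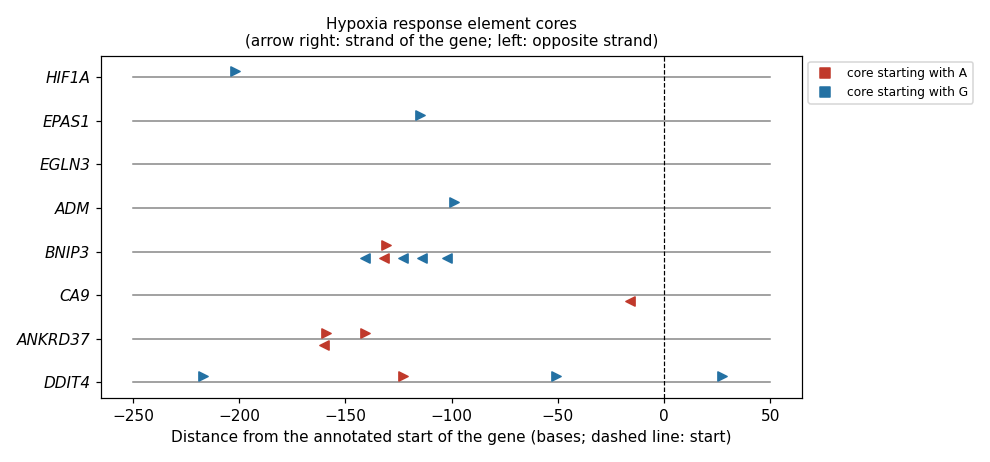
Positions of ACGTG (red) and GCGTG (blue) in the promoter windows of 8 members, in bases from the annotated start, with arrows to the right on the strand of the gene and to the left on the opposite strand. The 6 matches of BNIP3 lie between 143 and 104 bases before the start (first letters at -143 to -104), and the match of CA9 lies at -18.

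In the knockdown the calls among the members went both ways. EPAS1 and EGLN3 rose, BNIP3 and DDIT4 fell, and HIF1A, VEGFA, ADM, NDRG1 and ANKRD37 did not pass the test. Of the 9 tested members 2 were called higher and 2 lower (limma on log2(TPM + 1), Benjamini-Hochberg adjusted p under 0.05 over all tested genes), against a background of 6.19% of tested genes higher and 19.8% lower, or 26% in all. That split moved with the scaling: 1059 genes were called higher and 3389 lower as deposited, against 1944 and 2077 under median-of-ratios scaling, which gave the same 4 member calls. Their median log2 fold change was -0.04, beside -0.08 over all tested genes. The same 4 members had libraries that did not overlap between the groups, as did 43.6% of tested genes (11.9% higher and 31.7% lower).

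EPAS1 (ENSG00000116016; hg38 chromosome 2, 46293667 to 46386703, plus strand), the HIF-2 alpha gene, stood at 240.6, 228.2 and 212.2 TPM in siTDP-43 libraries, against 136.8, 140.6 and 129.7 TPM in siControl libraries. All 3 siTDP-43 libraries lay far above every control. The mean was 1.67 times that of siControl, and the log2 fold change was 0.74 ± 0.08 (SE; limma adjusted p = 0.000286). HIF1A (ENSG00000100644; chromosome 14, 61695513 to 61748259, plus strand) stood at 190.4, 186.6 and 168.9 TPM in siTDP-43 libraries and at 211.9, 212.1 and 186.3 TPM in siControl libraries. The lowest control lay among the siTDP-43 values, so the groups overlapped. Its log2 fold change of -0.16 (95% confidence interval -0.31 to -0.01) was not called (limma adjusted p = 0.118), but was with the replicate number as a block (adjusted p = 0.0405) and without siControl replicate 3 (log2 -0.22, adjusted p = 0.0385). The ratio of EPAS1 to HIF1A, which a linear scaling of a library cannot alter, was 1.22 to 1.26 in siTDP-43 libraries and 0.645 to 0.696 in siControl libraries.

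EGLN3 (ENSG00000129521; chromosome 14, 33924231 to 34462774, minus strand), a prolyl hydroxylase that is itself a target of the factors, stood at 12.16, 8.29 and 10.83 TPM in siTDP-43 libraries, against 8.02, 7.49 and 7.24 TPM in siControl libraries. The groups did not overlap, but siTDP-43 replicate 2 came close to the highest control. The log2 fold change was 0.40 ± 0.12 (SE; limma adjusted p = 0.0376). This call was lost in 9 of 20 alternatives, and leaving out 1 library at a time gave log2 changes of 0.29 to 0.54, with the highest value without siTDP-43 replicate 2 (adjusted p = 0.00503) and the lowest without siTDP-43 replicate 1 (adjusted p = 0.118).

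BNIP3 (ENSG00000176171; chromosome 10, 131966455 to 131982013, minus strand), a mitochondrial outer membrane protein that promotes removal of mitochondria, stood at 65.37, 64.56 and 68.27 TPM in siTDP-43 libraries, against 88.19, 96.38 and 107.8 TPM in siControl libraries. Every siTDP-43 library lay below every control, and the controls spread more widely. The mean was 67.8% of siControl (log2 -0.55 ± 0.07 (SE); limma adjusted p = 0.000515). Without siControl replicate 3, the highest library, the log2 change was still past the test, and over all leave-one-out fits it ranged from -0.62 to -0.48. GENCODE lists 39 processed pseudogenes named after BNIP3, with near-identical stretches that RSEM may share out, and together they had 12.6 to 19.11 TPM in siTDP-43 and 16.31 to 19.18 TPM in siControl libraries.

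DDIT4 (ENSG00000168209; chromosome 10, 72273920 to 72276036, plus strand), also called REDD1, an inhibitor of mTORC1 induced by hypoxia and other stresses, stood at 44.30, 43.56 and 41.59 TPM in siTDP-43 libraries, against 55.86, 55.12 and 53.64 TPM in siControl libraries. The spread within each group was small, and the groups lay clearly apart. The mean was 78.6% of siControl (log2 -0.34 ± 0.04 (SE); limma adjusted p = 0.000288).

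The secreted signals did not follow. VEGFA (ENSG00000112715; chromosome 6, 43770184 to 43786487, plus strand), which drives growth of blood vessels, had 129.6, 112.9 and 116.3 TPM in siTDP-43 libraries and 119.2, 125.6 and 126.9 TPM in siControl libraries. ADM (ENSG00000148926; chromosome 11, 10304680 to 10307397, plus strand), the vasodilator adrenomedullin, had 4.10, 3.62 and 3.93 TPM in siTDP-43 libraries and 3.97, 3.68 and 3.33 TPM in siControl libraries. Both overlapped between the groups. The 95% confidence intervals of the log2 fold changes were -0.17 to 0.07 for VEGFA and -0.22 to 0.36 for ADM. NDRG1 (ENSG00000104419; chromosome 8, 133237171 to 133302022, minus strand), a stress-responsive protein also linked to myelin, lay at 8.34 to 9.62 TPM in siTDP-43 and 8.68 to 9.97 TPM in siControl libraries, with an interval of -0.22 to 0.13. ANKRD37 (ENSG00000186352; chromosome 4, 185396021 to 185400628, plus strand), a small ankyrin repeat protein, lay at 14.94 to 17.17 TPM in siTDP-43 and 13.98 to 16.14 TPM in siControl libraries, with an interval of -0.14 to 0.37. CA9 (ENSG00000107159; chromosome 9, 35673856 to 35681159, plus strand) was listed at 0.20, 0.20 and 0.05 TPM in siTDP-43 and at 0.05, 0 and 0.20 TPM in siControl libraries, too low to test.

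**Figure D3:**
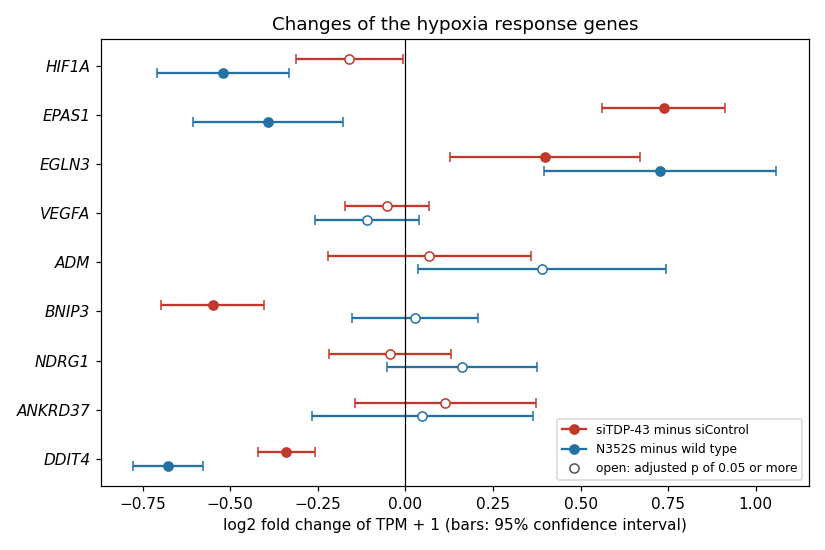
Log2 fold change of TPM + 1 (points) with 95% confidence intervals (bars) of the 9 tested members, for siTDP-43 minus siControl (red, upper of each pair) and N352S minus wild type (blue), filled where the adjusted p was under 0.05. EPAS1 lies at 0.74 in the knockdown and at -0.39 in N352S cells, and DDIT4 lies below 0 in both.

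In N352S cells the factor genes were lower. HIF1A, EPAS1 and DDIT4 fell, EGLN3 rose, and VEGFA, ADM, BNIP3, NDRG1 and ANKRD37 did not pass the test. That made 1 member called higher and 3 lower among 9, against a background of 8.28% and 11.9% of tested genes (20.2% in all). Their median log2 fold change was 0.03, beside -0.03 over all tested genes. With 2 libraries a group, 7 of the 9 had groups that did not overlap (3 higher and 4 lower), as did 60.1% of tested genes (25.4% higher and 34.7% lower).

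HIF1A had 139.5 and 129.4 TPM in N352S libraries, against 201.5 and 184.8 TPM in wild-type libraries. Both N352S libraries lay below both others, at a mean of 69.6% of wild type (log2 -0.52 ± 0.08 (SE); limma adjusted p = 0.00279). EPAS1 had 112.8 and 93.86 TPM in N352S libraries, against 143.4 and 127.7 TPM in wild-type libraries. These groups were closer to each other, at a mean of 76.2% of wild type (log2 -0.39 ± 0.09 (SE); limma adjusted p = 0.0196). The call for EPAS1 was lost without N352S replicate 82 (log2 -0.26, adjusted p = 0.110), without wild type replicate 79 (log2 -0.31, adjusted p = 0.132), in a fit of these 4 libraries alone (adjusted p = 0.0928) and when every gene was kept however low (adjusted p = 0.113). The ratio of EPAS1 to HIF1A was 0.725 to 0.809 in N352S libraries and 0.691 to 0.712 in wild-type libraries.

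EGLN3 had 6.73 and 7.31 TPM in N352S libraries, against 3.99 and 3.70 TPM in wild-type libraries. Its level was 1.83 times that of wild type, the largest log2 rise among the tested members (0.73 ± 0.15 (SE); limma adjusted p = 0.00847). The adjusted p was 0.0528 without N352S replicate 82 and 0.0521 without wild type replicate 80. DDIT4 had 98.56 and 96.14 TPM in N352S libraries, against 156.17 and 156.35 TPM in wild-type libraries. Replicates nearly coincided, and the mean was 62.3% of wild type (log2 -0.68 ± 0.04 (SE); limma adjusted p = 1.7e-05).

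BNIP3, lower in the knockdown, had 61.15 and 58.99 TPM in N352S libraries and 59.00 and 58.82 TPM in wild-type libraries. The 95% confidence interval of its log2 fold change was -0.15 to 0.21. VEGFA had 99.19 and 98.84 TPM in N352S libraries and 109.6 and 104.3 TPM in wild-type libraries (limma adjusted p = 0.279). ADM had 3.84 and 3.49 TPM in N352S libraries and 2.03 and 3.18 TPM in wild-type libraries. Its wide interval, 0.04 to 0.74, went with a low level and an adjusted p of 0.116 in limma, and the value rested on single libraries: it was 0.16 without wild type replicate 79 (adjusted p = 0.546) and 0.62, then called, without wild type replicate 80 (adjusted p = 0.0289). NDRG1 had 8.52 and 9.51 TPM in N352S libraries and 7.90 and 7.98 TPM in wild-type libraries, with an interval of -0.05 to 0.38. ANKRD37 had 11.71 and 8.81 TPM in N352S libraries and 8.84 and 10.86 TPM in wild-type libraries, which overlapped, with an interval of -0.27 to 0.36. CA9 was listed at 0 in both N352S libraries and at 0 and 0.23 TPM in wild-type libraries.

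EPAS1 thus rose in the knockdown and fell in N352S cells, and the difference between the effects was tested in the same fit (log2 1.13 ± 0.12 (SE); limma adjusted p = 0.000313). Among tested genes 22% passed that test (8.2% with a higher and 13.8% with a lower value). Between the experiments, which differ in handling and were not compared by a test, wild-type libraries had 2.85 times the DDIT4 of siControl libraries, while N352S libraries, at 97.4 TPM, also lay above siControl (54.9 TPM). The wild-type mean was 0.507 of siControl for EGLN3 and 0.604 for BNIP3, and EPAS1 was the same to within the spread (135.6 and 135.7 TPM).

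Several members overlap genes on the other strand, and as no source states whether strand was used in counting, reads of such pairs cannot be told apart. HIF1A-AS2, an RNA gene opposite HIF1A, picked out after its values were seen, had 3.55, 2.46 and 2.24 TPM in siTDP-43 libraries, against 1.49, 1.03 and 0.59 TPM in siControl libraries. It was called higher (log2 0.89 ± 0.21 (SE); limma adjusted p = 0.013), although HIF1A itself had the opposite sign. ARHGEF39, which overlaps CA9 from the opposite strand, averaged 17.3 TPM over all libraries, far above CA9. UFSP2, opposite ANKRD37, fell in the knockdown (log2 -0.33; limma adjusted p = 0.00388). The antisense gene within DDIT4, DDIT4-AS1, fell with it in N352S cells, with 4.97 and 14.45 TPM in N352S and 36.64 and 21.58 TPM in wild-type libraries (log2 -1.60, limma adjusted p = 0.0358). On the same strand, SPTSSA lies within the GENCODE span of EGLN3 and averaged 19.1 TPM over all libraries, against 7.58 TPM for EGLN3. SPTSSA had 16.66 and 15.23 TPM in N352S and 11.95 and 13.95 TPM in wild-type libraries. It was called in neither comparison (N352S log2 0.28, limma adjusted p = 0.0757). Any share of its reads in the EGLN3 values was not tested. The RNA gene AL137129.1 overlaps HIF1A on the same strand (13.8 TPM on average).

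The wider hypoxia list held 87 genes in 6 groups, of which 72 were tested. Like the members, these genes were chosen with earlier results of these data known. Their shares of called genes, here and by group below, are therefore not independent of the data. Whether an excess over all tested genes comes from that choice was not tested. In the knockdown 9 rose and 15 fell (33.3%, against 26% of all tested genes), with a median log2 fold change of -0.05 beside -0.08. In N352S cells 12 rose and 13 fell (34.7%, against 20.2%), with a median of 0.02 beside -0.03. The balance in the knockdown turned with the scaling: 16 rose and 10 fell under median-of-ratios scaling, and 16 rose and 11 fell under quantile normalization.

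Among 11 genes of oxygen sensing 2 were called in the knockdown, 18.2% against 26% of all tested genes. The knockdown lowered EGLN1, the main oxygen-sensing hydroxylase (38.5 and 44.8 TPM in siTDP-43 and siControl libraries; limma adjusted p = 0.0209), and raised the ubiquitin ligase gene SIAH1 (29.2 and 23.2 TPM; 0.0406). In N352S cells EGLN1 rose (30.35 and 27.66 TPM, against 22.71 and 21.99 TPM in wild type; limma adjusted p = 0.00599), as did the elongin gene ELOB, and SIAH2 fell. VHL, at 62.8 and 60.3 TPM in siTDP-43 and siControl and 54.1 and 58.9 TPM in N352S and wild-type libraries, was called in neither. Of 8 partners and cofactors, 1 rose and 2 fell in the knockdown (37.5% called, against 26%). HIF3A, another alpha subunit that can act against the others, rose to 10.8 TPM in siTDP-43, against 5.18 TPM in siControl libraries (log2 0.96; limma adjusted p = 0.00439). HSP90AA1, a chaperone of the alpha subunits, fell (752.7 and 962.4 TPM; log2 -0.36, adjusted p = 0.000681), as did ARNT2. In N352S cells ARNT2 was the 1 gene of this group called, and was lower (12.5% called, against 20.2%). HIF3A, ARNT2 and the oxygen sensing genes are named after their values were seen.

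Of 35 other targets, 6 rose and 9 fell in the knockdown, where 6.19% of all tested genes rose and 19.8% fell. IGFBP3, which binds insulin-like growth factors, rose to 13.6 ± 1.27 TPM in siTDP-43, against 6.11 ± 0.18 TPM in siControl libraries (SD, n = 3 each; log2 1.04, limma adjusted p = 3.6e-05). The transcription factor gene BHLHE40 rose to 19.1 TPM, against 11.0 TPM (log2 0.74), and the collagen lysyl hydroxylase PLOD1 to 77.6 TPM, against 56.5 TPM (log2 0.45). BNIP3L, the close relative of BNIP3 in mitochondrial removal, fell to 89.5 ± 2.20 TPM in siTDP-43, against 118.9 ± 3.45 TPM in siControl libraries (SD, n = 3 each; log2 -0.41, limma adjusted p = 0.000137), and the endoplasmic reticulum oxidase ERO1A to 43.5 TPM, against 63.3 TPM (log2 -0.53). In N352S cells 8 of these targets rose and 3 fell, against 8.28% and 11.9% of all tested genes. The chemokine receptor CXCR4 stood at 69.7 TPM in N352S and 10.9 TPM in wild-type libraries (log2 2.57, limma adjusted p = 1.77e-06), ERO1A, BHLHE40 and PLOD1 were also called higher there (log2 0.29, 0.42 and 0.37), and BNIP3L, at 71.8 and 72.4 TPM in N352S and wild-type libraries, was not called.

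Of 8 genes around DDIT4 in mTORC1 control and the integrated stress response, 5 fell and 0 rose in N352S cells (limma; also 0 higher at an unadjusted p under 0.05), where 11.9% of all tested genes fell. TSC1, TSC2 and RHEB were not called. The transcription factor ATF4 fell to 363.3 TPM in N352S, against 428.3 TPM in wild type (log2 -0.24; limma adjusted p = 0.0013), SESN2, an inhibitor of mTORC1, to 17.08 and 16.49 TPM, against 29.18 and 26.87 TPM (log2 -0.71), TXNIP to 75.4 TPM, against 109.5 TPM (log2 -0.53), and the kinase gene MTOR to 20.1 TPM, against 33.8 TPM (log2 -0.72). MTOR (chromosome 1, 11106535 to 11262507) lies near the edited gene TARDBP (chromosome 1, 11012344 to 11026420). In N352S libraries MTOR stood at 59.5% of its wild-type mean and TARDBP at 61.1%. PLOD1, further along the same chromosome (11934205 to 11975538), was called higher in N352S cells (66.3 TPM, against 51.0 TPM in wild type). Whether position bears on the change of MTOR or PLOD1 was not tested. DDIT3, named after its values were seen, was the fifth (log2 -0.22). The siControl means of ATF4 (159.4 TPM) and SESN2 (5.26 TPM) lay below the N352S means, as for DDIT4. In the knockdown 2 of these 8 genes fell (ATF4 and TXNIP), or 25% beside 26% of all tested genes called. They fell by 0.10 and 0.20 on the log2 scale, where the median of all tested genes was -0.08.

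The next group held 7 tested genes of receptors for VEGFA and ADM, of relatives of these receptors and of related ligands. In the knockdown 1 of them rose and 1 fell, 28.6% beside 26% of all tested genes. In N352S cells 1 rose and 3 fell, 57.1% beside 20.2%. NRP1, a co-receptor for VEGFA and semaphorins, rose to 14.5 TPM in siTDP-43, against 6.05 TPM in siControl libraries (log2 1.13, limma adjusted p = 0.000153), and fell to 3.35 TPM in N352S, against 7.10 TPM in wild-type libraries (log2 -0.90, limma adjusted p = 0.00135). NRP2 fell to 0.725 TPM in N352S, against 4.54 TPM in wild type (log2 -1.67). RAMP1, listed in this group as a relative of RAMP2 and RAMP3, fell to 108.2 TPM in siTDP-43, against 149.6 TPM in siControl (log2 -0.46). RAMP1 rose to 172.9 TPM in N352S, against 122.5 TPM in wild type (log2 0.49). RAMP2 was called in neither comparison, at 14.03 and 14.11 TPM in siTDP-43 and siControl and 16.035 and 15.64 TPM in N352S and wild-type libraries. CALCRL and RAMP3 averaged 0.94 and 0.301 TPM over all libraries and were not tested. Whether the receptors of adrenomedullin changed was therefore not tested. The VEGFA receptor genes FLT1 and KDR, counted among the other targets, averaged 0.061 and 0.107 TPM over all libraries and were not tested. Of 3 relatives of NDRG1, 0 were called in the knockdown by limma (1 at an unadjusted p under 0.05), beside 26% of all tested genes. In N352S cells 1 of the 3 was called, 33.3% beside 20.2%. This was NDRG3, which rose (36.7 TPM, against 30.9 TPM in wild type; limma adjusted p = 0.015).

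**Figure D4:**
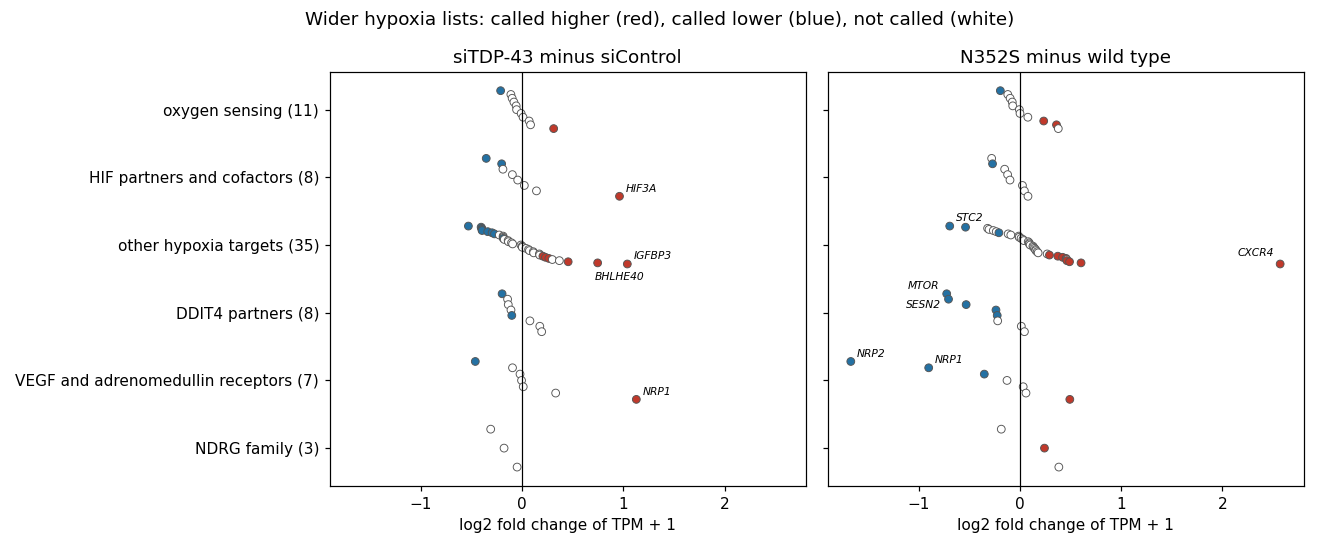
Log2 fold change of TPM + 1 of the 72 tested genes of the wider list (points), by group (number tested in parentheses), for siTDP-43 minus siControl (left) and N352S minus wild type (right). Red points were called higher, blue lower and white not called; genes beyond 0.68 on either side are named, with CXCR4 at 2.57 in N352S cells.

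DDIT4, EGLN3 and EPAS1 varied most among members with at least 5 TPM on average (SD of log2(TPM + 1) over the 10 libraries 0.73, 0.47 and 0.45). Profiles were compared as the root mean square difference of mean-centred log2(TPM + 1) over 10 libraries with 10798 protein-coding genes, and are given for DDIT4 and EGLN3. Nearest to DDIT4 were GARS (0.111) and HERPUD1 (0.115), and nearest to EGLN3 were ETS2 (0.168) and GAL (0.169). The libraries share these 4 groups, so genes with like differences between the groups come out as near. GARS had 183.1, 227.2, 444.2 and 563.8 TPM and DDIT4 43.2, 54.9, 97.4 and 156.3 TPM in siTDP-43, siControl, N352S and wild-type libraries.

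**Figure D5:**
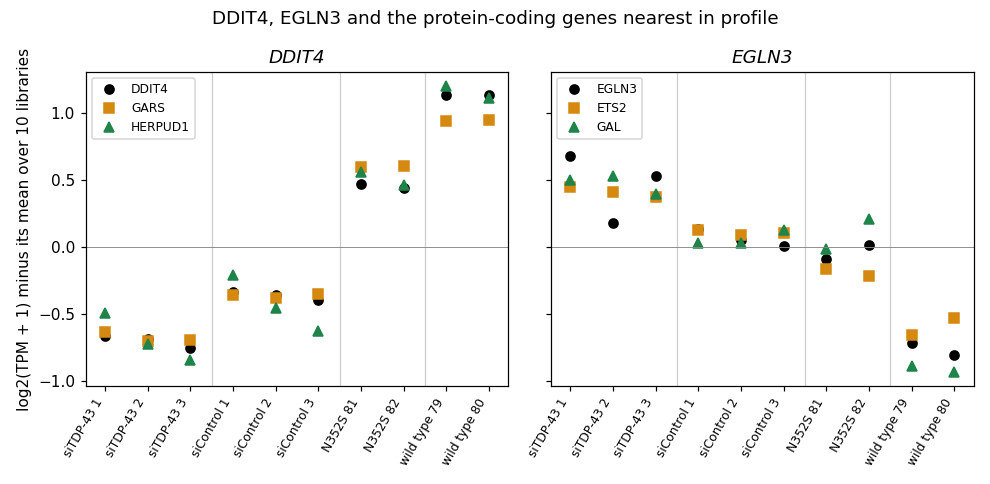
Log2(TPM + 1) minus its mean over the 10 libraries (vertical axis) in each library (horizontal axis) for DDIT4 and EGLN3 (black circles) and the genes nearest to each (squares and triangles). DDIT4 and GARS are lowest in the siTDP-43 libraries and highest in the wild-type libraries, and their profiles differ by 0.111.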

How the data were processed

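Per the labels' protocols, Trizol was used for the RNA and a TruSeq RNA kit for sequencing. The authors deposited TPM per gene; the submitters' processing notes name STAR, RSEM and hg38. Tool versions, annotation and strand setting: not given in the sources used here. TPM sum to about 1000000 in each library, so a rise of abundant transcripts lowers all other values. Members and lists were chosen with earlier results of these data known. Genes averaging 1 TPM or more were fitted as log2(TPM + 1), which understates changes of low genes, with means of 4 groups and a mean-variance trend, in limma 3.58.1 under R 4.3.3, with 6 residual degrees of freedom; the pairs of genotype libraries share the spread of the siRNA libraries. The fit was tested on simulated data. Calls are Benjamini-Hochberg adjusted p under 0.05. Same-numbered siRNA libraries deviated together (correlations 0.336, 0.137 and 0.198), so a replicate block was run; genotype libraries carry no shared numbers. Positions are from GENCODE 29. The text names all members, up to 8 called genes of the wider list per comparison by adjusted p, and the 2 genes nearest to each of the 3 most variable members; for EPAS1 these are not reported here. Alternatives were other pseudocounts (0.1, 5), filters (none, 5 TPM), scalings, fits, the block and removal of each library. Figures were drawn with matplotlib 3.10.9.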

Additional observations from a re-analysis of the deposited data

Results flagged for a closer look

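For 4 members the effect of the knockdown differed from that of N352S by a test of the difference itself (limma, knockdown log2 fold change minus N352S log2 fold change, adjusted over 17118 genes, of which 22% passed). The difference was 1.13 for EPAS1 (adjusted p = 0.000313), higher in 3 of 3 siTDP-43 and lower in 2 of 2 N352S libraries. It was -0.58 for BNIP3 (adjusted p = 0.00441), which fell in the knockdown and was not called in N352S cells. For DDIT4 it was 0.34 (adjusted p = 0.00326): DDIT4 was lower in all siTDP-43 and N352S libraries than in their controls, by more in N352S cells. For HIF1A it was 0.36 (adjusted p = 0.042), and 10 of 19 alternatives ended this call, at adjusted p up to 0.196. The experiments differ in handling, and the siRNA treatment and the editing cannot be told apart from it.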

How the results depend on the processing

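With 20 alternatives per member (19 for ADM, which a minimum of 5 TPM removed), the calls for EPAS1, BNIP3 and DDIT4 in the knockdown and for HIF1A and DDIT4 in N352S cells held in every one. The number of members called higher in the knockdown was 1 in place of 2 with no filter on low TPM and in a fit of only the groups compared, and 1 to 2 when each library was left out; in N352S cells it was 0 to 1 (0 without N352S replicate 82). Each time the knockdown count was 1, EGLN3 was the member no longer called, while EPAS1 held. Why the EGLN3 call was lost was not tested. VEGFA and NDRG1 in the knockdown, not called, turned to 0.0337 and 0.0338 under median-of-ratios scaling and to 0.0391 and 0.0447 under quantile normalization. Leaving out 1 library gave -0.0946 to 0.00696 for NDRG1 in the knockdown, -0.14 to 0.23 for ANKRD37 in N352S cells, and -0.00204 to 0.10 for VEGFA and -0.12 to 0.25 for ANKRD37 in the difference between the effects. The replicate block called HIF1A lower in the knockdown (adjusted p = 0.0405) and changed no other call of a member. Over all genes the knockdown had 1059 higher and 3389 lower calls, against 1944 and 2077 under median-of-ratios scaling, 1932 and 2015 under quantile normalization and 680 and 2166 with no filter. Without siTDP-43 replicate 3, 669 were higher. N352S had 1417 higher and 2033 lower, against 901 and 990 in a fit of its 4 libraries, and leaving out 1 library gave 813 to 1554 and 1019 to 2194. The higher count was 918 without N352S replicate 81 and 813 without wild type replicate 79, and the lower count 1242 without N352S replicate 82, 1019 without wild type replicate 79 and 1239 without wild type replicate 80. For the wider list in N352S cells, leaving out 1 library gave 7 to 13 higher and 8 to 14 lower. The 7 came without N352S replicate 81, wild type replicate 79 or wild type replicate 80, and the 8 without wild type replicate 79. Depth is unknown, so no counting error can be given for low genes such as CA9 and ADM.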
